A study of Caenorhabditis elegans with 9 samples.

Results

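Loss of the O-GlcNAc transferase was read across 17118 genes by comparing ogt-1(ok430) larvae with wild-type larvae of Caenorhabditis elegans. The differences were taken between 6 of the 9 arrays of the study, 3 of ogt-1(ok430) and 3 of the wild type. The 3 remaining arrays came from oga-1(ok1207) larvae, which lack the enzyme that takes the sugar off again. They stayed in the fitted model, so standard errors and p-values also rest on their spread. All samples were labelled as fed larvae of the fourth larval stage, the last before adulthood. Each array held RNA of 20 whole animals amplified by 1 round of T7 transcription. No other allele, transgene or treatment is named in the labels for any group, and a second ogt-1 allele or a rescued strain was not analysed here. The arrays are labelled biological replicates without naming separate cultures, so the p-values measure the spread between these samples. A gene was read by its brightest probe set, and its level is a log2 signal, on which 1 unit is a doubling.

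O-GlcNAc is a single sugar, N-acetylglucosamine, placed on serine and threonine residues of proteins in the nucleus and cytoplasm. The transferase OGT uses UDP-GlcNAc, the end product of the hexosamine pathway, which draws on glucose, glutamine, acetyl-CoA and nucleotide. Known targets include nuclear pore proteins, RNA polymerase II and many transcription factors. Worms that lack ogt-1 are viable, and the enzyme is known there for roles in fat and sugar storage and in dauer formation.

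The mutated gene itself read 6.97, 7.01 and 7.12 on the ogt-1 arrays, against 7.96, 7.91 and 7.83 on the wild-type arrays. The groups did not overlap, and the difference was -0.87 ± 0.09 (SE; limma adjusted p = 8.9e-05). Whether these probes lie in the deleted stretch was not analysed here, so the value does not say how much working transcript was left. The opposing enzyme's gene, oga-1, differed by 0.06 ± 0.11 (adjusted p = 0.81).

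Of the 17118 genes, 3144 passed the test at an adjusted p under 0.05, which is 18.4%. They were 1480 genes higher in ogt-1 larvae (8.65%) and 1664 lower (9.72%). The rises were the larger changes: 445 genes were at least 2-fold higher and 87 at least 2-fold lower, and at 4-fold the counts were 67 and 6. The median called rise was 0.772 and the median called fall -0.525, beside a median of -0.025 over all genes. All 3 ogt-1 arrays lay above all 3 wild-type arrays in 14.7% of genes and below them in 19%, and 40 of the called genes overlapped between groups.

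**Figure D1:**
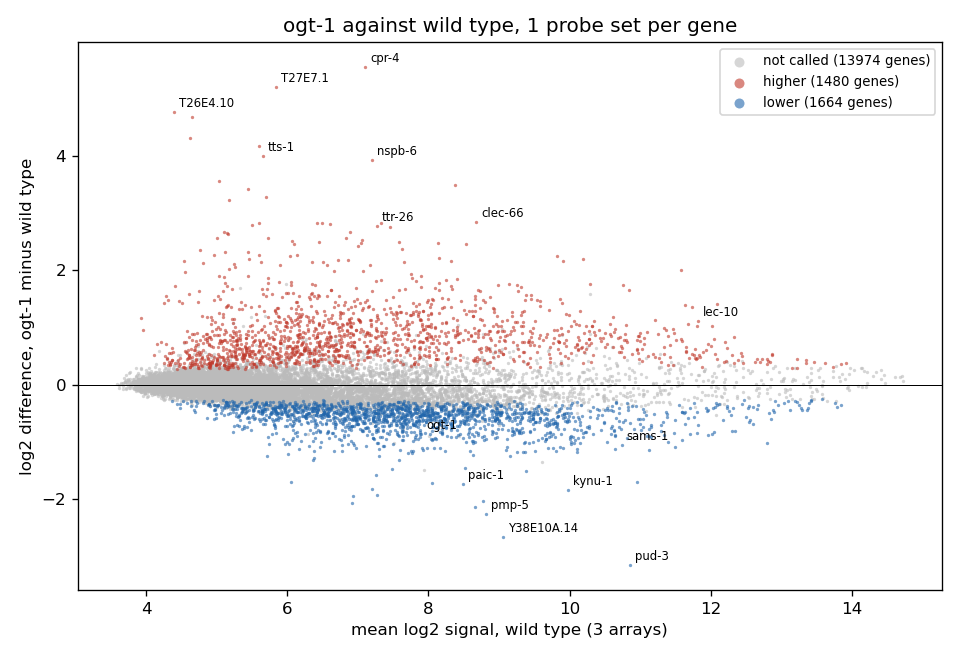
Each point is 1 gene, with its mean log2 signal on the 3 wild-type arrays on the horizontal axis and the log2 difference, ogt-1 minus wild type, on the vertical axis. Red points were called higher (1480 genes), blue points lower (1664 genes) and grey points were not called. The rises reach 5.55 (cpr-4) and the falls -3.15 (pud-3).

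Calls became more frequent with signal. With genes split into 10 equal groups by level, 0.234% of the dimmest group were called higher and 0.234% lower, and in the brightest group 23.6% and 27.1%. A list of bright genes therefore has a higher share of calls than a list of dim ones, and among the 8559 genes above the median level 15% were higher and 18.1% lower.

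**Figure D2:**
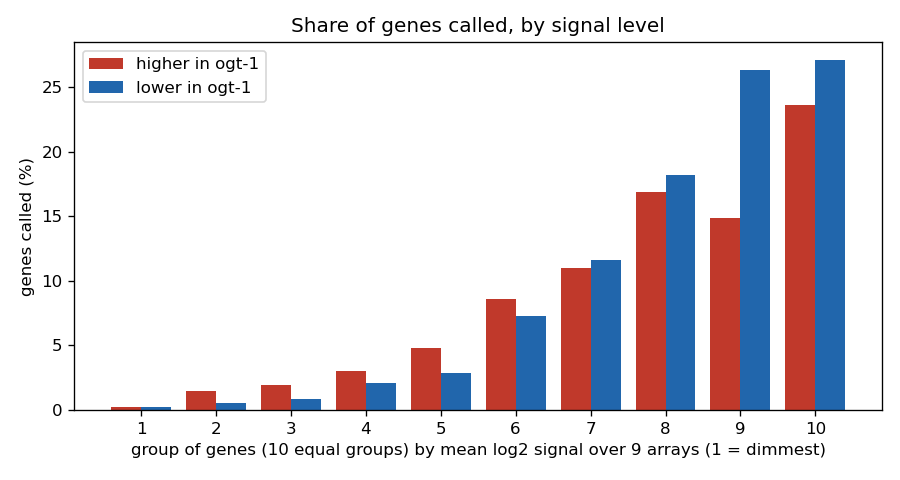
Genes are split into 10 equal groups by their mean log2 signal over the 9 arrays (horizontal axis), and the bars give the percentage of each group called higher (red) or lower (blue) in ogt-1 larvae. The shares are 0.234% each in the dimmest group and 23.6% and 27.1% in the brightest, with 1 step down, in the higher genes between groups 8 and 9.

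Control probe sets also moved between the groups. The 18 bacterial hybridisation controls averaged 9.38 ± 0.12 on ogt-1 arrays and 9.11 ± 0.09 on wild-type arrays (SD, n = 3 each). The 3′ minus 5′ signal, which reads how far amplified RNA reached back along a transcript, was 4.04 ± 0.12 for actin on ogt-1 arrays and 4.77 ± 0.05 on wild-type arrays (SD, n = 3 each), and differed by -0.379 for Gapdh. A two-sided exact permutation test gave p = 0.1 for each, and 3 arrays against 3 can give no smaller value. The part of these shifts in the gene counts was not tested. In whole larvae, fewer cells of a type and less RNA per cell cannot be told apart.

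The largest rises joined lysosomal, secreted and uncharacterised genes. The cathepsin B-like protease gene cpr-4 read 12.31, 12.97 and 12.67 on ogt-1 arrays, against 7.06, 7.07 and 7.18 on wild-type arrays, a 46.8-fold difference (5.55 ± 0.14 SE, adjusted p = 1.5e-09). The gene T27E7.1 read 11.16, 10.99 and 10.97 on ogt-1 arrays, against 5.41, 6.01 and 6.09 on wild-type arrays (36.7-fold). The long noncoding RNA tts-1 read 9.41, 9.73 and 9.79 on ogt-1 arrays, against 5.59, 5.39 and 5.98 on wild-type arrays (15.9-fold). In all 3 the groups lay several log2 units apart, and the spread within a group stayed under 1 unit.

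Other large rises were uneven among the ogt-1 arrays. T26E4.10 read 8.05, 9.18 and 10.22 on ogt-1 arrays, against 4.41, 4.42 and 4.35 on wild-type arrays. Its neighbour T26E4.9 read 7.98, 9.05 and 9.78 on ogt-1 arrays, against 4.65, 4.71 and 4.49 on wild-type arrays. Both were higher on every ogt-1 array, by amounts up to about 2 log2 units apart, and the same array was the lowest for both. C23G10.11 read 7.37, 10.39 and 10.23 on ogt-1 arrays, against 4.52, 4.64 and 4.80 on wild-type arrays, and ZK218.11 read 7.02, 9.41 and 8.77 on ogt-1 arrays, against 5.05, 5.33 and 5.14 on wild-type arrays. Here ogt-1 array 1 was the low one. Over all called genes, 61 had a range above 1 on the ogt-1 arrays, 54 of them higher genes and 7 lower ones, and ogt-1 array 1 was the closest to the wild-type mean in 48 of the 61. Within-group spread of this size was uncommon, since the median range was 0.316 for genes called higher and 0.248 for genes called lower.

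The 15 largest rises lay between 2.83 and 5.55, and included the C-type lectin gene clec-66 (2.85 ± 0.13), the CUB-like immune gene dod-24 (3.5 ± 0.32) and B0310.6 (3.57 ± 0.12). All 15 also differed between the ogt-1 and oga-1 arrays in the same fit, a comparison that uses the same ogt-1 arrays and in which 25% of genes were called. Only cpr-4 among them was called between oga-1 and wild-type larvae.

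The largest falls were led by pud-3, a gene named for a protein raised in long-lived daf-2 mutants. It read 6.93, 7.76 and 8.41 on ogt-1 arrays, against 10.75, 10.36 and 11.45 on wild-type arrays, 8.88-fold lower (-3.15 ± 0.33 SE, adjusted p = 6.2e-05). Its relative pud-4 differed by -1.92 ± 0.33 (adjusted p = 0.0016), with 4.72, 5.42 and 5.90 on ogt-1 arrays and 7.29, 6.66 and 7.85 on wild-type arrays. The groups did not overlap for either gene, which the choice of the largest falls required. For both, ogt-1 array 1 was the lowest.

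The other large falls took in metabolic and body-shape genes. The stearoyl-CoA desaturase gene fat-7, which makes oleate, read 5.11, 4.90 and 4.96 on ogt-1 arrays, against 7.11, 7.13 and 6.58 on wild-type arrays (-1.95 ± 0.14). The gene lon-1, whose secreted product restrains body length, read 5.90, 5.53 and 5.61 on ogt-1 arrays, against 7.15, 7.28 and 7.36 on wild-type arrays (-1.58 ± 0.11, adjusted p = 4.7e-06). Both fell on every ogt-1 array, which the choice of the largest falls required. The astacin protease gene dpy-31, which acts in the processing of cuticle collagen, fell by 2.14 ± 0.14, and Y38E10A.14 fell by 2.65 ± 0.23.

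Of the 15 largest falls, which lay between -3.15 and -1.58, 14 also differed between ogt-1 and oga-1 arrays. The exception was cnc-7, a gene of a caenacin antimicrobial peptide, whose wild-type arrays ran at 7.77, 6.94 and 6.04. Leaving out any 1 ogt-1 or wild-type array ended the call of 1 of the 30 largest changes, acdh-1.

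**Figure D3:**
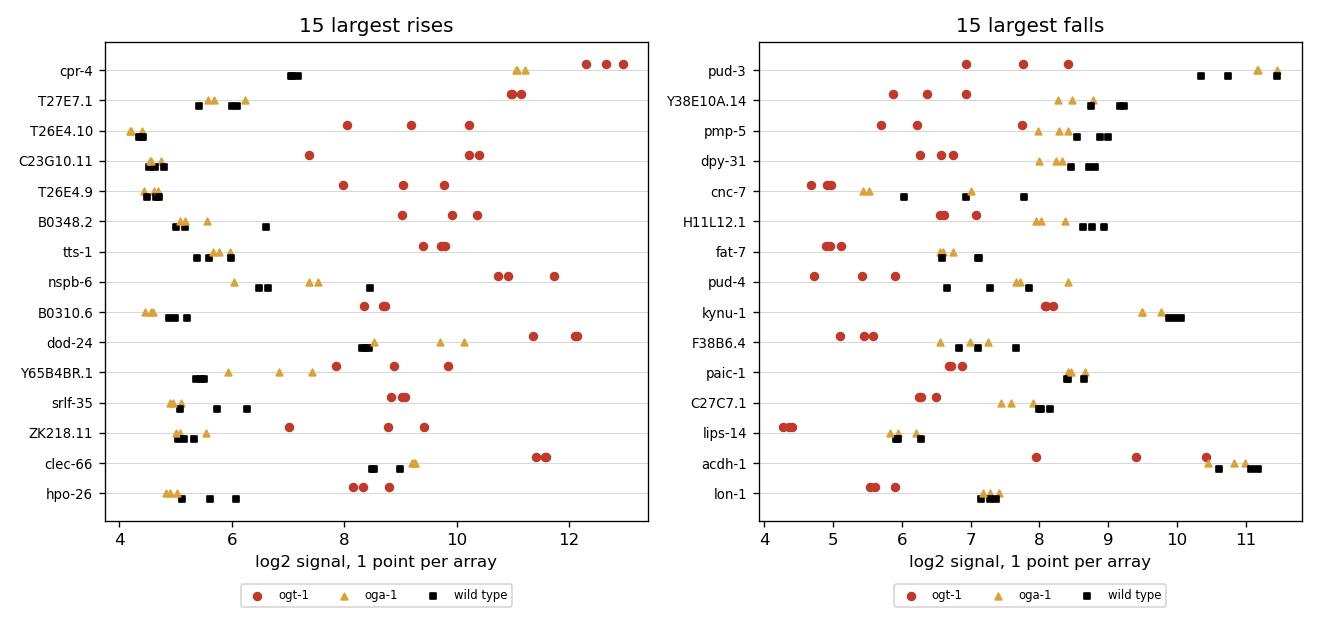
Log2 signals of the 15 largest rises (left) and 15 largest falls (right), 1 point per array, with ogt-1 as red circles, oga-1 as orange triangles and wild type as black squares, 3 arrays each. Every ogt-1 array lies outside the 3 wild-type arrays of the same gene, because only such genes were eligible. The ogt-1 points of C23G10.11, T26E4.10 and acdh-1 are widely spread. The oga-1 points of several genes, such as cpr-4, clec-66, dod-24, kynu-1 and dpy-31, lie between the other groups.

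Genes of protein digestion in the gut and lysosome rose in 2 protease families. Of 8 cathepsin B-like genes 4 rose and 0 fell, with a median of 0.56. The gut protease gene cpr-1 rose by 1.36 ± 0.15, with 12.80, 13.22 and 13.23 on ogt-1 arrays and 11.77, 11.48 and 11.93 on wild-type arrays, and cpr-9 rose by 1.02 ± 0.15, while cpr-6 differed by -0.30 (adjusted p = 0.09). Of 15 aspartic protease genes 6 rose and 2 fell, with a median of 0.10. The largest of the named ones was asp-14 (1.77 ± 0.23), followed by asp-7 (0.91 ± 0.09) and the lysosomal cathepsin D-like asp-3 (0.80 ± 0.10), and asp-13 fell by 0.94 ± 0.22. The count of 2 falls became 1 without wild-type array 2 or ogt-1 array 3. No cathepsin B-like gene fell, but 1 did without ogt-1 array 3. Of 36 astacin metalloproteases 0 rose and 2 fell (dpy-31 and nas-11, -0.94 ± 0.12), and of 20 serpins and trypsin-like proteases 2 rose, among them try-12 (0.87 ± 0.10), with 1 left without any single wild-type array, ogt-1 array 2 or ogt-1 array 3.

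Transthyretin-related genes, a nematode family of mostly secreted proteins, were often higher. Of 40 measured, 18 rose and 6 fell, with a median of 0.27. The gene ttr-26 read 9.93, 10.12 and 10.05 on ogt-1 arrays, against 7.61, 7.23 and 6.96 on wild-type arrays (2.77 ± 0.16, adjusted p = 1e-06). The gene ttr-21 rose by 2.46 ± 0.13 and ttr-23 by 1.67 ± 0.12, whereas ttr-31 fell by 0.92 ± 0.18 and ttr-46 by 0.84 ± 0.13. The phosphatidylserine-binding ttr-52, which acts in the clearance of dying cells, differed by -0.01 ± 0.12.

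Galectins and pharyngeal secreted genes held risers as well. Of 12 galectin genes, whose products bind galactose-containing sugars, 6 rose and 2 fell. The gene lec-10 read 12.93, 12.94 and 12.90 on ogt-1 arrays, against 11.7, 11.78 and 11.95 on wild-type arrays (1.11 ± 0.10), and lec-8 rose by 1.02 ± 0.12, while lec-1 fell by 0.73 ± 0.11 and lec-2 by 0.74 ± 0.13. Of the 8 phat genes, expressed in pharyngeal glands, 6 rose, with phat-8 at 2.19 ± 0.13 and phat-7 at 1.32 ± 0.14, and phat-1 differed by -0.23 (adjusted p = 0.15). The wider list of pqn, abu and phat genes had 13 of 66 higher and 8 lower with a median of -0.03. The galectin and phat subfamilies were singled out after their values were seen.

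Genes of short nematode-specific peptides (nspa to nspe) rose in 11 of 16, with 0 lower and a median of 0.65. The gene nspb-6 read 11.73, 10.73 and 10.92 on ogt-1 arrays, against 6.48, 6.64 and 8.46 on wild-type arrays (3.93 ± 0.50), and wild-type array 3 was well above the other two. The gene nspd-9 rose by 1.78 ± 0.20. Major sperm protein and small sperm genes had 13 of 33 higher, 0 lower and a median of 0.29, with all 33 differences above 0. Of the 8 ssp genes all 8 rose, with ssp-33 at 1.49 ± 0.20, and of 23 msp genes 3 rose, with msp-74 at 0.56 ± 0.11. The ssp and msp subfamilies were singled out after their values were seen. The count of 13 was 6 without wild-type array 1 or ogt-1 array 1, 8 without ogt-1 array 2 and 7 without ogt-1 array 3. Members of these families are close copies of each other and may share probes, so their counts need not be separate genes.

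Markers of the sperm, read beside these families, summed to 16.30, 16.31 and 16.30 on the ogt-1 arrays and 15.83, 16.05 and 16.17 on the wild-type arrays (log2 of the summed signal of 17 genes). Of them 5 rose and 0 fell, and the count was 0 without wild-type array 1, 3 without wild-type array 2, 2 without ogt-1 array 1 and 1 without ogt-1 array 2 or 3. The sperm membrane genes fer-1 and spe-9 differed by 0.05 ± 0.09 and -0.02 ± 0.13. The part of sperm cell number in the rises was not tested.

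Lipid, metal and transport genes gave single strong risers in otherwise mixed lists. Of 21 lipase and lipid-binding genes 6 rose and 1 fell, with a median of 0.05. The fasting-induced lipase gene fil-1 read 7.56, 8.0 and 7.82 on ogt-1 arrays, against 5.0, 5.1 and 5.34 on wild-type arrays (2.65 ± 0.13), and the fatty-acid-binding lbp-1 rose by 0.74 ± 0.12 while lbp-6 fell by 0.90 ± 0.09. The fall count was 2 without wild-type array 1. The triglyceride lipase atgl-1 and the lysosomal lipase lipl-4 differed by 0.18 and -0.00 (adjusted p = 0.43 and 0.99).

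Of 48 metal and haem genes 6 rose and 6 fell (12.5% each), and the falls numbered 3 without wild-type array 1 or 2. Of the 48, 37 lay above the median level, where 15% of all genes rose and 18.1% fell. The ferritin gene ftn-1, an iron store, read 10.25, 10.24 and 10.30 on ogt-1 arrays, against 8.12, 8.47 and 8.62 on wild-type arrays (1.86 ± 0.14). The cadmium-responsive cdr-1 rose by 1.60 ± 0.13 and the haem carrier gene hrg-3 by 1.33 ± 0.21, whereas the ferroportin-like fpn-1.1 fell by 0.57 ± 0.12 and the metallothionein mtl-1 differed by 0.20 ± 0.40. Of 110 transporter genes, a list made by symbol and thus mixed, 12 rose (10.9%) and 15 fell (13.6%). Among all genes 8.65% rose and 9.72% fell, and 67 of the 110 lay above the median level. The aquaporin aqp-4 differed by 1.71 ± 0.19, the sugar transporter swt-3 by 0.83 ± 0.11 and the organic anion transporter oat-1 by -1.0 ± 0.10. The 15 falls were 9 without wild-type array 1. No ABC transporter of 52 rose, and 3 fell (5.77%), among them haf-6 (-1.25 ± 0.09) and pgp-9 (-0.73 ± 0.15). In that list 1 rose without wild-type array 3 or ogt-1 array 1.

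Enzymes that break down amino acids were often lower. Of 37 measured 17 fell and 2 rose, with a median of -0.31. The kynureninase gene kynu-1, of the tryptophan pathway, read 8.20, 8.10 and 8.08 on ogt-1 arrays, against 9.88, 9.97 and 10.06 on wild-type arrays (-1.84 ± 0.10, adjusted p = 6.6e-07). The enoyl-CoA hydratase gene ech-6 fell by 1.03 ± 0.11 and alh-8, of valine breakdown, by 0.79 ± 0.09. The 2 rises included the glutamine synthetase gene gln-1 at 1.43 ± 0.22, with 8.03, 8.55 and 8.81 on ogt-1 arrays and 7.0, 6.82 and 7.29 on wild-type arrays.

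The gene acdh-1, a dehydrogenase of the propionate shunt that responds to vitamin B12, was the most uneven of the large falls. It read 10.42, 7.95 and 9.40 on ogt-1 arrays, against 11.08, 11.18 and 10.60 on wild-type arrays, and differed by -1.69 ± 0.45 (adjusted p = 0.021). The adjusted p was 0.063 without wild-type array 1 and 0.076 without wild-type array 2. Of the other enzymes of the same shunt, ech-6 and alh-8 fell, while hach-1 and hphd-1, chosen after their values were seen, differed by -0.32 ± 0.14 and -0.22 ± 0.15 and were not called.

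Methionine cycle and one-carbon genes were lower in 11 of 27 and higher in 0, with a median of -0.29 (1 was higher without ogt-1 array 3). The gene sams-1 makes S-adenosylmethionine, the methyl donor of the cell, and read 9.87, 9.71 and 9.50 on ogt-1 arrays, against 10.58, 10.77 and 10.86 on wild-type arrays (-1.04 ± 0.11, and -1.09 by its other probe set). The serine hydroxymethyltransferase gene mel-32, which feeds the folate pool, fell by 0.96 ± 0.10. Of the pair of methyltransferases that use this donor to make phosphocholine, pmt-2 fell by 0.85 ± 0.10 and pmt-1 differed by 0.14 ± 0.15 (adjusted p = 0.67).

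Purine synthesis genes fell at several steps. The first committed enzyme, ppat-1, fell by 0.93 ± 0.13. The gene paic-1, of the middle steps, read 6.69, 6.88 and 6.71 on ogt-1 arrays, against 8.40, 8.42 and 8.65 on wild-type arrays (-1.73 ± 0.11, adjusted p = 1.7e-06). The final enzyme, atic-1, fell by 1.25 ± 0.12, but its other probe set differed by -0.13 and was not called. The adenylosuccinate synthase adss-1, on the branch to AMP, rose by 0.86 ± 0.12, and the NAD synthase qns-1 fell by 0.88 ± 0.11. The whole list of 26 purine, pyrimidine and nicotinamide genes had 7 lower and 2 higher with a median of -0.20, and 1 higher without ogt-1 array 3. The dehydrogenase gspd-1, which starts the pentose phosphate pathway and was chosen after its values were seen, fell by 0.69 ± 0.13.

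Peroxisomal genes, many of which shorten the side chains of ascaroside pheromones, fell in 11 of 26 and rose in 2, with a median of -0.27. The peroxisomal ABC transporter gene pmp-5 read 7.75, 5.70 and 6.22 on ogt-1 arrays, against 8.89, 9.0 and 8.54 on wild-type arrays (-2.25 ± 0.38), and ogt-1 array 1 was the closest to the wild type. The acyl-CoA oxidase acox-1.2 fell by 1.04 ± 0.15, acox-1.1 by 0.75 ± 0.11, and the thiolase daf-22 by 0.81 ± 0.10. The 2 rises were 1 without wild-type array 2 or ogt-1 array 3 and 0 without wild-type array 3 or ogt-1 array 2.

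**Figure D4:**
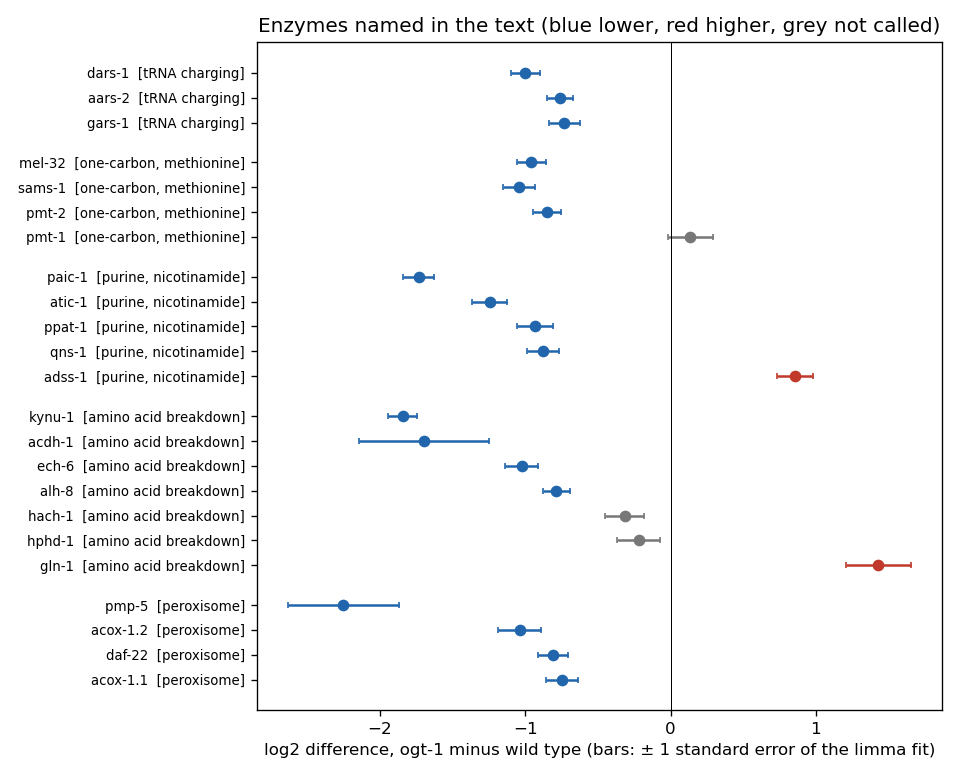
Log2 difference, ogt-1 minus wild type, of enzymes named in the text, with bars of ± 1 standard error from the limma fit on 9 arrays. Blue points fell, red points rose and grey points did not pass the test. Among the enzymes plotted, the largest falls are pmp-5 (-2.25), kynu-1 (-1.84) and paic-1 (-1.73), while gln-1 (1.43) and adss-1 (0.86) lie on the other side of 0.

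Genes that charge transfer RNAs were called in 1 direction. Of 32 aminoacyl-tRNA synthetases 13 fell and 0 rose, with a median of -0.33, and 27 of the 32 differences were below 0. The aspartyl enzyme dars-1 read 9.57, 9.53 and 9.47 on ogt-1 arrays, against 10.69, 10.47 and 10.41 on wild-type arrays (-1.0 ± 0.10), and the glycyl enzyme gars-1 fell by 0.73 ± 0.10. By symbol, 10 of the 13 were among 20 genes numbered like dars-1 and 3 among 12 numbered like aars-2. This split was chosen after the values were seen, and the compartment of each enzyme was not analysed here. The gene aars-2 fell by 0.76 ± 0.09, but its other probe set differed by 0.06 and was not called. Mitochondrial ribosomal proteins fell in 13 of 59 (22%, beside 18.1% of all genes above the median level), with 0 higher and a median of -0.20, and mrpl-32 fell by 1.12 ± 0.11. Without wild-type array 2 or ogt-1 array 2 the 13 became 7, and 1 rose without ogt-1 array 2. Of 37 translation factors 7 fell (18.9%, near the 18.1% of all genes above the median level), such as the initiation factor subunit eif-3.K (-0.91 ± 0.11). Another 2 rose, of which eif-4A3 (0.93 ± 0.13) is a core protein of the exon junction complex. The 2 rises were 1 without one of the wild-type arrays 2 and 3, or without ogt-1 array 3.

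Products of genes for nuclear transport and RNA synthesis include known O-GlcNAc carriers. Of 41 nuclear pore and transport genes 12 fell (29.3%) and 0 rose, with a median of -0.21, and 39 of the 41 lay above the median level, where 18.1% of all genes fell. The 3 importin alpha genes all fell, with ima-2 at -0.82 ± 0.09, while 5 of 26 npp genes of the pore itself fell and npp-1 differed by -0.07 ± 0.13. Of 59 genes of RNA polymerases, TAFs and Mediator 14 fell (23.7%) and 3 rose, with a median of -0.20, and the falls were 9 without wild-type array 2 and 8 without ogt-1 array 2. Of the 10 rpb subunit genes 5 fell, with rpb-6 at -0.89 ± 0.09, and the gene of the large subunit, ama-1, differed by -0.19 (adjusted p = 0.23). Importins, pore and rpb genes were singled out after their values were seen.

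Splicing genes had 17 of 39 lower and 1 higher, with a median of -0.30. The Sm protein gene snr-1 read 7.44, 7.24 and 7.25 on ogt-1 arrays, against 8.0, 8.07 and 7.71 on wild-type arrays (-0.61 ± 0.12), and the SR protein rsp-5 fell by 0.79 ± 0.10, while the hnRNP gene hrpf-1 rose by 0.75 ± 0.12 and rsp-3 differed by 0.13 ± 0.14. The 17 became 9 without wild-type array 1, 11 without wild-type array 2 and 8 without ogt-1 array 2. Chromatin genes fell in 18 of 87 (20.7%) and rose in 5, with a median of -0.12. Of the 87, 62 lay above the median level, where 18.1% of all genes fell. The SET-domain genes set-10 and set-17 fell by 0.77 ± 0.13 and 0.59 ± 0.10, the histone-binding lin-53 rose by 0.67 ± 0.11, hda-10 rose by 1.03 ± 0.18, and the deacetylase hda-1 differed by -0.04 ± 0.10. Of 61 small RNA genes, 52 of them above the median level, 14 fell (23%) and 1 rose. The riser was sid-5 (1.2 ± 0.15), which acts in the spread of RNA interference. Without wild-type array 1 the 14 were 8, and they were 9 each without wild-type array 2, ogt-1 array 1 and ogt-1 array 2. Without wild-type array 3, 2 rose.

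The gene of SUMO, smo-1, a small protein attached to nuclear proteins, was picked after its values were seen. It read 7.71, 8.04 and 8.12 on ogt-1 arrays, against 9.30, 8.77 and 9.22 on wild-type arrays, 2.2-fold lower (-1.14 ± 0.17, adjusted p = 0.00077). Its activating enzyme gene aos-1 and ligase gene gei-17 differed by -0.04 ± 0.12 and 0.09 ± 0.19. Ubiquitin conjugation genes fell in 11 of 47 (23.4%) and rose in 4, with the Skp1-related skr-5 at 1.56 ± 0.22. Of the 47, 35 lay above the median level, where 18.1% of all genes fell. The falls were 4 to 6 without one of the wild-type arrays 1, 2 and 3 or of the ogt-1 arrays 1 and 2. The F-box and MATH families, substrate adaptors of these ligases and mostly dim, had 17 of 413 higher (4.12%) and 7 lower (1.69%). Both shares were under those of all genes (8.65% and 9.72%). Those 17 were 6 to 9 without one of the wild-type arrays 1, 2 and 3 or of the ogt-1 arrays 2 and 3, and the 7 were 2 without one of the wild-type arrays 1 and 2, or without ogt-1 array 2.

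Chaperonin and prefoldin genes, which fold tubulin and actin, split within 1 complex. Of the 6 prefoldin genes 3 rose and 2 fell, with pfd-6 at 1.29 ± 0.12, pfd-3 at 1.2 ± 0.12 and pfd-1 at -0.65 ± 0.11, and pfd-6 read 10.50, 10.50 and 10.93 on ogt-1 arrays, against 9.37, 9.38 and 9.32 on wild-type arrays. Of the 8 cct genes 2 fell. The prefoldin and cct subfamilies were singled out after their values were seen. Tubulin, kinesin and dynein genes fell in 10 of 52 (19.2%) and rose in 3. Of the 52, 38 lay above the median level, where 18.1% of all genes fell. The alpha tubulins tba-4 and tba-1 differed by -1.07 ± 0.14 and -0.67 ± 0.10. The dynein heavy chain dhc-1 differed by -0.92 ± 0.12 and its partner dnc-3 by 0.90 ± 0.13. The 10 became 6 without wild-type array 1 or ogt-1 array 2. Vacuolar ATPase genes, which acidify lysosomes, fell in 7 of 20 and rose in 1, with vha-20 at -0.95 ± 0.14, and the falls were 3 or 4 without one of the wild-type arrays 2 and 3 or of the ogt-1 arrays 1 and 2. The rise was 0 without one of the wild-type arrays 1 and 2 or of the ogt-1 arrays 2 and 3, and 2 without wild-type array 3.

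Genes of DNA replication fell in 14 of 41 and rose in 0, with a median of -0.28. The helicase subunits mcm-7 and mcm-5 fell by 0.55 ± 0.12 and 0.52 ± 0.10 and the polymerase pold-1 by 0.63 ± 0.13. The count was 8 without wild-type array 1, 9 without wild-type array 2 and 6 without ogt-1 array 2. Cell cycle and kinetochore genes fell in 15 of 51 and rose in 1, the centromeric histone gene hcp-3 (0.94 ± 0.14), with emb-30 of the anaphase-promoting complex at -0.91 ± 0.11 and cyb-2.1, a B cyclin, at -0.79 ± 0.12. The 15 became 9 without ogt-1 array 2, and 2 rose without ogt-1 array 1. Condensin and dosage compensation genes fell in 5 of 16 and rose in 0, with hcp-6 at -0.87 ± 0.19 and sdc-2 at -0.02 ± 0.10. Those 5 were 2 without any 1 wild-type array, 3 without ogt-1 array 1 and 1 without ogt-1 array 2.

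Germline and oocyte markers moved with these groups. The summed signal of 19 germline markers was 13.46, 13.30 and 13.56 on ogt-1 arrays and 13.81, 13.68 and 13.64 on wild-type arrays, and the 15 oocyte markers summed to 14.47, 14.23 and 14.56 on ogt-1 arrays and 14.87, 14.77 and 14.71 on wild-type arrays. Of the germline markers 5 fell, with glh-1, a helicase of germ granules, at -0.87 ± 0.10, and 1 rose, the meiotic syp-2 (0.88 ± 0.12). Of the oocyte markers 8 fell and 0 rose, with all 15 differences below 0 and a median of -0.39, and the eggshell chitin synthase chs-1 fell by 0.64 ± 0.12 and oma-2 by 0.67 ± 0.11. The germline falls were 3 without wild-type array 1 or 2 and 2 without ogt-1 array 2, and 2 rose without wild-type array 3. The oocyte falls were 4, 5 and 3 without wild-type array 1, wild-type array 2 and ogt-1 array 2. The part of germ cell number in the replication, cell cycle and RNA lists was not tested.

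Lists of regulators of transcription and signalling had shares of calls below those of all genes above the median level. Of 35 transcription factors of stress, fat and immunity 4 rose (11.4%) and 0 fell. Of the 35, 27 lay above the median level, where 15% of all genes rose. The defence factor zip-2 read 7.71, 8.39 and 8.47 on ogt-1 arrays, against 6.94, 6.90 and 6.94 on wild-type arrays (1.26 ± 0.19), and the gut GATA factor elt-7 rose by 0.84 ± 0.16, while daf-16, skn-1 and hlh-30 differed by -0.25, -0.30 and 0.23 and were not called. Another probe set of hlh-30 was called higher (0.40, adjusted p = 0.021). The 4 were 2 each without wild-type array 1, ogt-1 array 2 and ogt-1 array 3, and 1 fell without ogt-1 array 3. The Mad-like repressor gene mdl-1, chosen after its values were seen, read 8.60, 8.55 and 8.51 on ogt-1 arrays, against 5.99, 6.05 and 6.25 on wild-type arrays (2.46 ± 0.11, adjusted p = 1.6e-07). The 3 ogt-1 arrays agreed to within 0.1, and this was the largest change described here for a transcription factor.

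Of 52 TGF-beta, Wnt and Notch genes 6 fell (11.5%) and 1 rose (1.92%). Of the 52, 36 lay above the median level, where 18.1% of all genes fell. Lower were lon-1, the Frizzled receptor mom-5 (-0.75 ± 0.12) and the receptor daf-1 (-0.51 ± 0.10). The gamma-secretase subunit pen-2 was higher (0.90 ± 0.14). The other probe sets of mom-5 and daf-1 differed by 0.07 and 0.04 and were not called. The falls were 3 without wild-type array 2. The ligand dbl-1, whose pathway lowers lon-1, differed by -0.04 ± 0.09. Of 34 nutrient and energy kinase genes 6 fell (17.6%) and 0 rose. Of the 34, 27 lay above the median level, where 18.1% of all genes fell. The TORC2 subunit rict-1 differed by -0.50 ± 0.09. The TOR kinase gene let-363 differed by -0.29 (adjusted p = 0.17), and its other probe set was called lower (-0.58, adjusted p = 0.0026). The falls were 1 to 3 without one of the wild-type arrays 1 and 2 or of the ogt-1 arrays 1 and 2. Glycosyltransferases of the secretory route fell in 15 of 108 (13.9%, beside 9.72% of all genes) and rose in 3. The gene gly-8 differed by -1.28 ± 0.12 (its other probe set differed by -0.30 and was not called) and the chondroitin synthase sqv-5 by -0.83 ± 0.10. The 15 were 8 without wild-type array 1 or ogt-1 array 2 and 9 without wild-type array 3, and the 3 were 1 without one of the wild-type arrays 1 and 2, or without ogt-1 array 3.

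**Figure D5:**
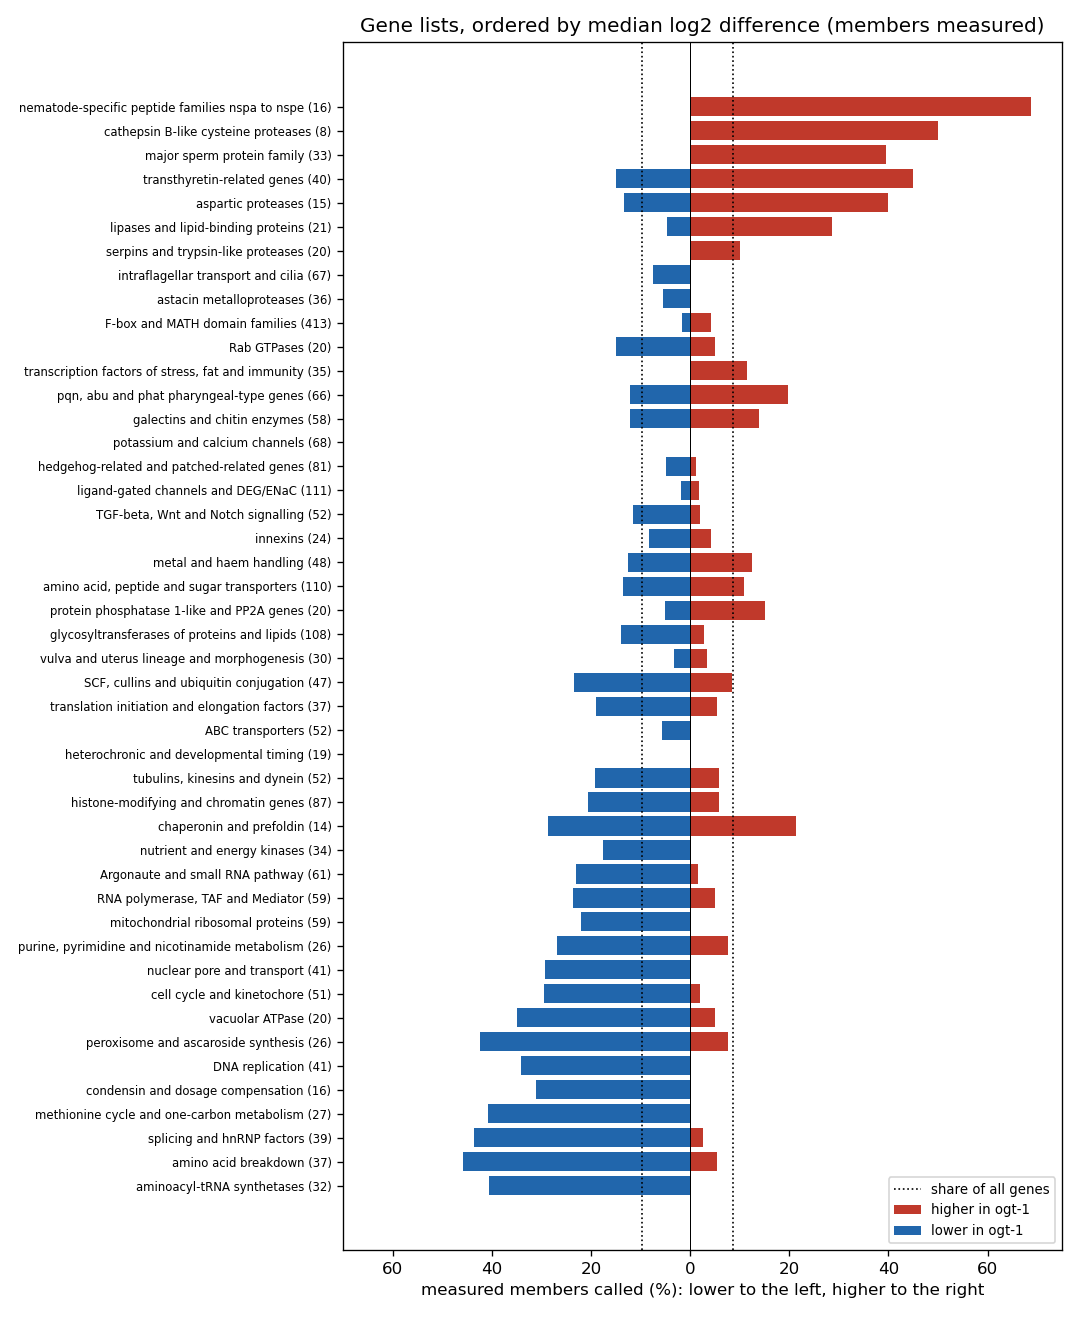
Percentage of the measured members of each gene list called higher (red, to the right) or lower (blue, to the left) in ogt-1 larvae, with lists ordered by their median log2 difference and the number of members in brackets. Dotted lines mark the share of all 17118 genes called higher (8.65%) and lower (9.72%). The nspa to nspe peptides (11 of 16 higher) stand at the top and the aminoacyl-tRNA synthetases (13 of 32 lower) at the bottom, and the potassium and calcium channel list and the heterochronic list have no called member.

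Neural, timing and stage genes were mostly not called. Potassium and calcium channels had 0 of 68 called (1 higher with array weights), with median levels of 4.93 in ogt-1 and 4.95 in wild-type larvae, below the 5.37 of all genes in the wild type, and differences between -0.27 and 0.28. Ligand-gated channels had 2 of 111 higher, with glc-1 at 0.71 ± 0.14, and 2 lower (1.8% each). They were dim too, with median levels of 4.79 in ogt-1 and 4.83 in wild-type larvae and 17 of the 111 above the median level. Among all genes with levels from 4.64 to 4.85, 1.93% were higher and 0.876% lower. The count of 2 lower was 0 without wild-type array 3 or ogt-1 array 3 and 1 without one of the wild-type arrays 1 and 2, or without ogt-1 array 2. None of 18 neuronal markers was called, among them rab-3 (0.16, adjusted p = 0.34) and snb-1 (-0.16, adjusted p = 0.45), and 1 fell without ogt-1 array 3. The octopamine-synthesis gene tbh-1, chosen after its values were seen, read 8.11, 7.94 and 8.41 on ogt-1 arrays, against 9.40, 9.47 and 9.15 on wild-type arrays (-1.18 ± 0.14).

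None of 19 heterochronic genes, which time larval stages, was called, and lin-28 and lin-42 differed by -0.08 and -0.00. With only the ogt-1 and wild-type arrays fitted 3 of the 19 were lower, and 1 was with a replicate block. None of 10 adult and larval stage markers and none of 9 male markers was called (1 stage marker was lower with each array's spread as a covariate). The adult collagen gene col-19 was bright in both groups. It read 11.80, 11.99 and 12.07 on ogt-1 arrays and 11.85, 11.96 and 11.87 on wild-type arrays, and differed by 0.06 ± 0.09. Whether all animals were at the labelled stage was not tested. The stage markers summed to 13.80, 13.91 and 14.14 on ogt-1 arrays and 14.15, 13.96 and 14.04 on wild-type arrays, so the groups overlapped. Hedgehog-related genes had 1 of 81 higher (1.23%) and 4 lower (4.94%), under the 8.65% and 9.72% of all genes. The riser was wrt-5 (1.04 ± 0.14). The 4 falls were 2 without one of the wild-type arrays 1 and 2, or without ogt-1 array 1. Without ogt-1 array 3, 2 rose.

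Innexin genes, which form gap junctions, rose in 1 of 24 (4.17%) and fell in 2 (8.33%), under the 8.65% and 9.72% of all genes. The changes had opposite signs in a pair expressed in the gonadal sheath: inx-9 rose by 0.77 ± 0.15 and inx-8 fell by 0.89 ± 0.12. Of 67 cilia and tmem genes 5 fell (7.46%), below the 9.72% of all genes, and 3 without wild-type array 1 or without ogt-1 array 3. The ciliary factor daf-19 differed by -0.63 ± 0.13, while its other probe set differed by -0.01 and was not called. Of 20 Rab genes, 11 of them above the median level, 3 fell (15%), with rab-6.1 at -0.92 ± 0.14. Among all genes above that level 18.1% fell. Another Rab gene, 1 of the 20 (5%), rose, a call lost without wild-type array 1 or without ogt-1 array 3. Of 20 protein phosphatase genes, 15 of them above the median level, 3 rose (15%), with gsp-2 at 0.61 ± 0.09. Among all genes above that level 15% rose as well. A further 1 of the 20 (5%) fell, a call lost without wild-type array 1, wild-type array 2 or ogt-1 array 2. Of 30 vulva and uterus genes 1 rose, dhs-31 (1.19 ± 0.18), and 1 fell, the septin unc-59 (-0.68 ± 0.14), which is 3.33% each. The inducing signal of the vulva, lin-3, differed by 0.01 ± 0.13.

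Markers of the main larval tissues gave mixed shifts. No detection threshold was applied, and 9 of 18 neuronal, 2 of 4 coelomocyte and 6 of 13 pharyngeal markers lay above the median level of all genes. The muscle factor hlh-1 was dim, at 3.84, 3.86 and 3.93 on ogt-1 arrays and 3.83, 3.76 and 3.93 on wild-type arrays. Of 16 intestinal markers 3 rose and 3 fell. They summed to 14.12, 14.25 and 14.20 on ogt-1 arrays and 14.12, 14.15 and 14.27 on wild-type arrays, overlapping, and the counts were 1 higher without wild-type array 1, wild-type array 2 or ogt-1 array 2, and 5 lower without ogt-1 array 3. The acid phosphatase pho-1 (-1.19 ± 0.20) and intestinal actin act-5 (-0.91 ± 0.10) fell while the gut factor elt-2 differed by 0.20 ± 0.13. The 3 risers were elt-7 (0.84 ± 0.16), ges-1 (0.68 ± 0.18) and gtl-1 (0.40 ± 0.11). Of the 16 differences 11 were above 0, with a median of 0.13. Of 15 body wall muscle markers 3 rose (1 without wild-type array 2) and 3 fell. They summed to 14.95, 15.11 and 15.12 on ogt-1 arrays and 14.63, 14.62 and 14.88 on wild-type arrays, with no overlap. Such sums mostly follow the brightest members. The mean log2 signals of the list overlapped, at 8.71, 8.9 and 8.8 on ogt-1 arrays and 8.82, 8.78 and 9.06 on wild-type arrays. The median difference was -0.12. In that list the troponin I unc-27 (-0.87 ± 0.13) and troponin T mup-2 (-0.61 ± 0.14) fell and the troponin C pat-10 (0.45 ± 0.09) rose. Of 13 pharyngeal markers 4 rose and 0 fell. They summed to 10.42, 10.57 and 10.57 on ogt-1 arrays and 9.56, 9.36 and 9.62 on wild-type arrays, but the median difference was 0.04. The pharyngeal troponin C tnc-2 (2.49 ± 0.14) had the largest rise in that list. Of 13 hypodermal markers 2 fell, but 1 without wild-type array 1, wild-type array 2, ogt-1 array 2 or ogt-1 array 3. They summed to 12.65, 12.76 and 12.64 on ogt-1 arrays and 12.55, 12.59 and 12.40 on wild-type arrays, with the collagen dpy-7 at 0.04 ± 0.12. Their mean log2 signals were not higher, at 7.0, 6.97 and 6.93 on ogt-1 arrays and 7.04, 7.1 and 7.0 on wild-type arrays. The median difference was -0.03. Of 4 coelomocyte markers 1 fell, a call lost without any single wild-type array, ogt-1 array 1 or ogt-1 array 3, and none of 10 excretory markers was called. Their sums were 7.36 to 7.48 and 9.16 to 9.30 on ogt-1 arrays, and 7.5 to 7.59 and 9.29 to 9.43 on wild-type arrays.

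Called genes were spread over all 6 chromosomes. Chromosome IV had the highest share of risers, 11.7%, with 10.4% lower, and chromosome III the highest share of falls, 13.8%, with 7.67% higher. Chromosome V had 7.82% higher and 6.43% lower. Of the 10 measured genes that flank ogt-1 on chromosome III, B0280.17 was higher (1.03 ± 0.24) and K04G7.1 lower (-0.94 ± 0.11), and the other differences lay between them.

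Some risers were neighbours. Counting measured genes in annotation order, 28 runs of at least 3 adjacent risers held 98 genes, and 48 runs of falls held 158 genes. The longest, 8 genes on chromosome IV, joined F55G11.7, F55G11.8, dod-22, F55G11.2, F55G11.3, mbug-1, dod-17 and K10D11.2, with differences from 0.35 to 2.53 and a median of 1.76. In that run mbug-1 read 11.93, 12.22 and 12.09 on ogt-1 arrays, against 9.99, 9.98 and 9.75 on wild-type arrays. The call of F55G11.3 was lost without one of the wild-type arrays 1 and 3 or of the ogt-1 arrays 1 and 2. Another run held F01D5.1, F01D5.2, F01D5.3 and F01D5.5 (1.13 to 2.48). These runs were singled out after their values were seen, and genes of such tandem families can share probes.

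Other probe sets of a gene bore on the calls. Of 789 further probe sets of 649 called genes, 651 (82.51%) moved the same way, 265 (33.59%) were called the same way and 6 the opposite way. Of 2332 genes that were not called and had another probe set, 216 had one that was called. Among genes named above, the other probe set was not called for glh-1 (-0.50), gsp-2 (0.06), hcp-6 (-0.29), mcm-7 (-0.40), pat-10 (0.30), rict-1 (-0.11) and set-17 (-0.17). One further probe set was also not called for lec-2 (-0.58), oat-1 (-0.16) and rab-6.1 (-0.18), while that of snb-1 was called lower (-0.72, adjusted p = 0.027).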

How the data were processed

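The authors deposited log2 probe set signals for 22625 probe sets of an Affymetrix array on 9 samples, and the processing notes of the submitters list MAS5, RMA and Partek without roles. Array means agree and values lie between 3.49 and 14.9, so the table was used without further normalization or pseudocount. Controls (77 probe sets) were left out, which leaves 22548. Of these 20766 name 1 gene, 887 several and 895 none. Each gene was read by its probe set with the highest mean over the 9 arrays. Symbols follow the platform annotation and RefSeq's gene table of WBcel235, used for names, chromosomes and neighbour order only. The build behind the array was not given in the sources used here, and no coordinates or sequences are printed.

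A linear model with a mean per strain was fitted to the log2 values of the 9 arrays (limma 3.58.1, moderated by eBayes, R 4.3.3), leaving 6 residual degrees of freedom. P-values were two-sided and adjusted by Benjamini-Hochberg over all 22548 probe sets. Controls were compared by exact permutation tests. The number of arrays limits precision: the median standard error was 0.112.

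Genes, lists and alternatives were chosen with earlier results of these data known. Named genes are ogt-1, the 15 largest rises and falls without overlap, up to 3 called members per direction and set anchor genes of each list, the neighbours of ogt-1, the 5 widest genes and the brightest called genes. Others are marked as chosen after their values were seen. Equal replicate numbers of ogt-1 and wild type deviated together with r of 0.044, -0.004 and 0.114, so samples were taken as unpaired. Promoter motifs were not analysed here. The alternatives were other normalizations, filters, variance models, thresholds and probe set rules, a replicate block and leaving out each ogt-1 or wild-type array. No oga-1 array was left out singly.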

Additional observations from a re-analysis of the deposited data

Results flagged for a closer look

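Probe sets outside the gene comparison also held calls. Of the 895 probe sets that name no gene 69 (7.71%) were called, 21 higher and 48 lower, with differences from -1.28 to 2.41. Of the 887 that name several genes 175 (19.7%) were called, 126 higher and 49 lower, with differences from -3.36 to 3.71. They came up because the gene comparison left them out. With 3 arrays a group, no search for outlying arrays within a group was made.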

How the results depend on the processing

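The counts of 1480 higher and 1664 lower genes came to 938 higher among probe sets in the top quartile of level, and to 657 lower with a 1.5-fold minimum. Leaving out 1 ogt-1 or wild-type array gave 1175 to 1416 higher and 1013 to 1555 lower genes, with 1013 lower without ogt-1 array 2. A replicate block gave 1524 higher and 1724 lower, and changed neither count by over 1.5 times. No named gene reversed: of 279 called, 220 were called under every alternative that tested them and 56 lost the call without 1 array. Chosen after the data were seen were each array's spread as a covariate (1525 and 2179) and leaving out together the arrays with an SD above 1.8, 1 ogt-1 and 2 oga-1, so that the lone oga-1 array is taken to vary as the other groups do (1271 and 1779). In the dimmest of 10 groups by level 0.234% were called each way, so dim genes limit what could be seen.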
